A study of Mus musculus with 74 samples.

Results

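The forestomach is the upper, squamous-lined chamber of the mouse stomach. Its epithelium was compared between embryonic day 14 (E14) and embryonic day 12 (E12) with 4 RNA-seq libraries, 2 at each day, out of 74 samples in the series. The libraries were chosen by their labels, as the RNA columns of the deposited count table named for the forestomach at those days. All came from wild-type CD1 embryos that had received no treatment. Per the labels, the organs were digested with trypsin and the cells carrying Epcam, an epithelial surface protein, were collected by flow sorting. RNA was amplified with a low-input kit and read as 75 bp single-end reads. The other groups compared here were the wild-type CD1 hindstomach and small intestine at the same days and the forestomach and hindstomach at E16, each with 2 libraries and the same digest and sort. The fit that gave the p-values also held small intestine libraries of wild-type CD1 embryos at E16 and E18. It held mutant small intestine too, on a B6;129 mixed background, where Cdx2f/f had been deleted with Shh-Cre at E10 or with Villin-Cre at E13, both collected at E16, or with Villin-Cre at E15, collected at E18. The labels call the small intestine cells of E12 and E14 midgut. The labels do not say how many embryos were pooled or whether replicates were separate litters, so p-values measure only the spread between libraries of a group, pooled over all groups in the fit, which may be technical.

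In the mouse the stomach divides into a forestomach, which becomes a stratified squamous lining like that of the oesophagus and skin, and a glandular hindstomach. Stratified epithelia are built on a basal layer that makes the keratins Krt5 and Krt14 and the transcription factor p63 (gene Trp63), is anchored to the basement membrane by hemidesmosomes, and gives rise to suprabasal cells that later form a cornified envelope. The glandular stomach instead depends on endoderm factors such as Gata4 and on region genes such as Nkx6-3, while Sox2 is a textbook marker of the early foregut and of the forestomach.

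The 4 libraries held 18075525 to 30881562 counts, within a range of 5970227 to 62463167 over the 27 embryonic libraries fitted together. Levels are given as CPM, which are counts brought to a common library size with TMM factors, for replicates 1 and 2 in that order. Epcam itself stood at 841 and 834 CPM at E12 and 806 and 825 CPM at E14, so the sorted marker was at about the same level in all 4 libraries. Short lists of lung, liver and pancreas markers, and a hindstomach list that is mostly Gata4, summed to less at E14 than at E12. The summed level of the 6 hindstomach markers was 331 and 337 CPM at E12 and 72.6 and 73.3 CPM at E14, most of it from Gata4. Of these 6, Gata4 and Nkx6-3 were called lower, Muc5ac was called higher, and Cldn18, Gkn2 and Tff2 were not called. The lung list summed to 153 and 153 CPM at E12 and to 59.9 and 57.9 CPM at E14. Most of that sum was Etv5, which is also in the FGF and EGF list below. The liver list summed to 138 and 134 CPM and then 15.6 and 18.7 CPM. The pancreas list summed to 399 and 359 CPM and then 94.2 and 87.5 CPM. Most of its E12 sum was Gcg, and 4 of its 6 members were not called. The summed level of the 6 forestomach markers went the other way, from 581 and 543 CPM to 3059 and 2996 CPM, with the largest part of the rise from Krt15. Of these 6, Trp63, Krt5, Krt15 and Pitx1 were called higher, and Sox2 and Sox21 were not called. In sorted pools, fewer cells of a type and less RNA per cell cannot be told apart. Nor can cells of neighbouring organs in the E12 pieces be told apart from forestomach cells that made these transcripts, which touches the falls of Nkx6-3, Pdx1, Gcg and Afp below.

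The libraries labelled hindstomach at E12 went against their label. Gata4 stood at 0.369 and 0.569 CPM in them, against 358 and 338 CPM in the hindstomach at E14, and the 6 hindstomach markers summed to 1.08 and 0.838 CPM. The intestinal regulator Cdx2 was at 116 and 160.2 CPM, and Hoxb13, which marks the posterior end of the body axis, was at 150.3 and 159 CPM. Hoxb13 was at 0.0705 and 0 CPM in the E12 forestomach and at 0.135 and 0.0319 CPM in the E12 small intestine. Cdx2 belonged to the marker lists, whereas the Hox genes were picked after their values had been seen. For that reason the small intestine serves as the main organ for comparison, and every value that rests on the libraries labelled hindstomach at E12 is marked.

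**Figure D1:**
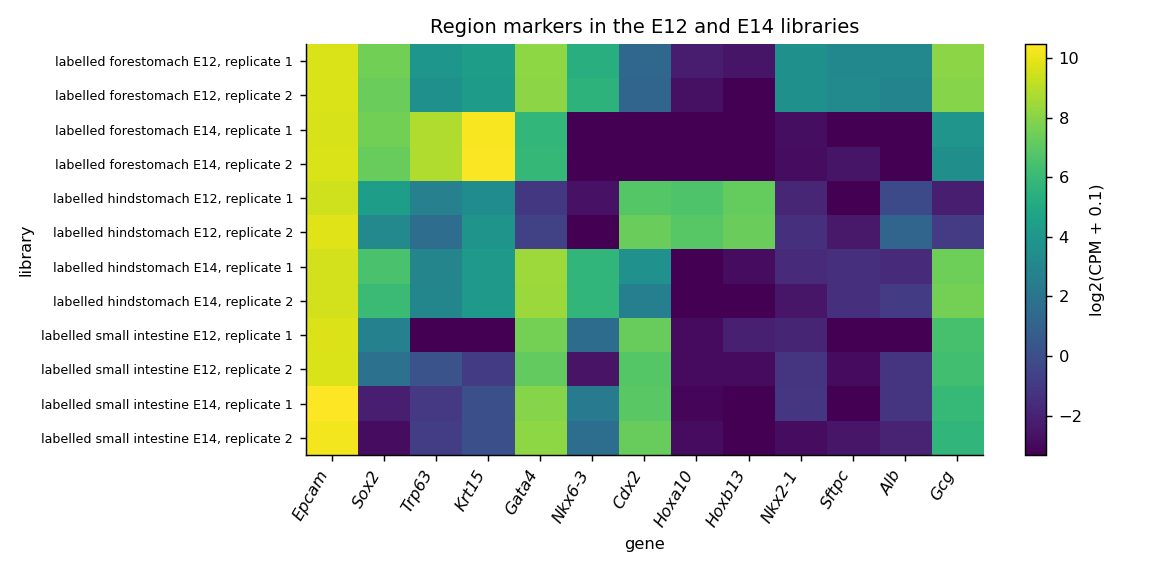
Levels of 13 region genes in the 12 libraries of E12 and E14, as log2(CPM + 0.1) by colour, with 1 row for each library and 1 column for each gene. The 2 libraries labelled hindstomach at E12 show Hoxa10, Hoxb13 and Cdx2 and almost no Gata4, and the E12 forestomach libraries show Gata4, Nkx6-3, Nkx2-1, Sftpc, Alb and Gcg, each of which is lower in both E14 forestomach libraries.

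Promoter sequences are shown for 3 genes that rose and 1 that fell, because these 4 hold the sequence motifs that the text below counts. They are the 250 bases before and the 50 bases after the start of each gene, from RefSeq on GRCm38.p6, read 5′ to 3′ on the strand of the gene. Capitals mark the AP-1 site TGANTCA, the TATA box TATAAA and the GC box GGGCGG, searched on both strands, and no 2 of these matches overlap. Krt13 encodes a suprabasal keratin of wet squamous linings, Serpinb5 encodes maspin, Col17a1 encodes a hemidesmosome collagen, and Nepn is a leucine-rich repeat protein gene of the foregut and midgut endoderm. For Krt13 the table lists 2 starts and the upstream one is printed.
Krt13, chr11:100121517-100121816, minus strand: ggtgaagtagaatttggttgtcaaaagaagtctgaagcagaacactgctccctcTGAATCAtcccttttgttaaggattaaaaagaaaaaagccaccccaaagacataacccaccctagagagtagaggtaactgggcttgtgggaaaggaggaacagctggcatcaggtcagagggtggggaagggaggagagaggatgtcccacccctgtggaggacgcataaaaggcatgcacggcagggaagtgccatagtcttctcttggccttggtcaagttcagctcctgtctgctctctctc
Serpinb5, chr1:106860925-106861224, plus strand: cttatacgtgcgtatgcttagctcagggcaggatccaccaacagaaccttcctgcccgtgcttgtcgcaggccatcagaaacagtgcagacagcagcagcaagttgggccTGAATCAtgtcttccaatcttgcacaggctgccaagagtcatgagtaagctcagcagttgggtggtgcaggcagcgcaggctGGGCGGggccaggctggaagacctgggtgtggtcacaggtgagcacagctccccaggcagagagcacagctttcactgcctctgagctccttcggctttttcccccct
Col17a1, chr19:47691993-47692292, minus strand: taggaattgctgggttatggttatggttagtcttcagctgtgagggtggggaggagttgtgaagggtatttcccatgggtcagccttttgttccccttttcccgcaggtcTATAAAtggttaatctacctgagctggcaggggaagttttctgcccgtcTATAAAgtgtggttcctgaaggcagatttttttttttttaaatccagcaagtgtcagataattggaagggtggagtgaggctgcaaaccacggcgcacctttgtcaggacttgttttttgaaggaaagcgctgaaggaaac
Nepn, chr10:52391358-52391657, plus strand: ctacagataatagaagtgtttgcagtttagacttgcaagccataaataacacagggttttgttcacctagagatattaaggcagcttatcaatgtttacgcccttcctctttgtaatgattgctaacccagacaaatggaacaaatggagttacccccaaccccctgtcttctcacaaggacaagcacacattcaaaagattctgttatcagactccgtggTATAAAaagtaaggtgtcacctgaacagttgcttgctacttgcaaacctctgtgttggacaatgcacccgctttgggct

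In these windows the AP-1 letters begin at base 55 in Krt13 and at base 111 in Serpinb5, the TATA letters at bases 111 and 160 in Col17a1 and at base 222 in Nepn, and the GC box at base 193 in Serpinb5. Of 1307 genes called higher and 885 called lower at E14, 952 and 621 had a promoter entry. Only the first promoter listed for a gene was counted in these sets. AP-1 letters were in 8.51% of the 952 for genes called higher at E14 and in 5.31% of the 621 for genes called lower. They were in 5.6% of the 12705 for all tested genes. Over all 32851 promoter entries, where every listed start of a gene counts, the share was 7.81%. The TATA letters were in 7.77% of promoters of genes called higher and in 10.6% of those called lower, against 8.63% of all tested genes and 13.6% of all entries. The GC box was in 65.2%, 57.8%, 58.7% and 35.7% of the same sets in that order. A match is a run of letters and no record of binding.

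Of 17239 genes tested with edgeR, 2192 were called, with a Benjamini-Hochberg adjusted p below 0.05 and a change of at least 2-fold, which is 12.7% of those tested. The called genes divided into 1307 higher at E14 (7.58%) and 885 lower (5.13%), the shares against which the list counts below are read. The median log2 fold change of all tested genes was -0.03. Without E14 replicate 1 the count of genes called lower was 505 and the share of higher calls rose from 59.6% to 68.2%. A total of 170 genes called higher had no count in either E12 library, and 82 called lower had none in either E14 library. For such genes the fold is a lower bound, taken against a floor of 3 counts in each library, and covers counting error only. Of 2383 genes higher in the E16 hindstomach than in the E16 forestomach by the same rule, 282 were called higher at E14 (11.8%) and 264 lower (11.1%), with a median log2 fold change of 0.12. Of 1081 genes higher in the E16 forestomach, 248 were called higher at E14 (22.9%) and 97 lower (8.97%), with a median of 0.00. Region and cell type cannot be told apart in these E16 sets. Mesenchyme and smooth muscle markers summed to 25217 and 31499 CPM in the E16 forestomach and 7622 and 8048 CPM in the E16 hindstomach. Blood markers summed to 14611 and 19679 CPM against 1054 and 1494 CPM, and epithelium markers to 848 and 796 CPM against 5428 and 5190 CPM.

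**Figure D2:**
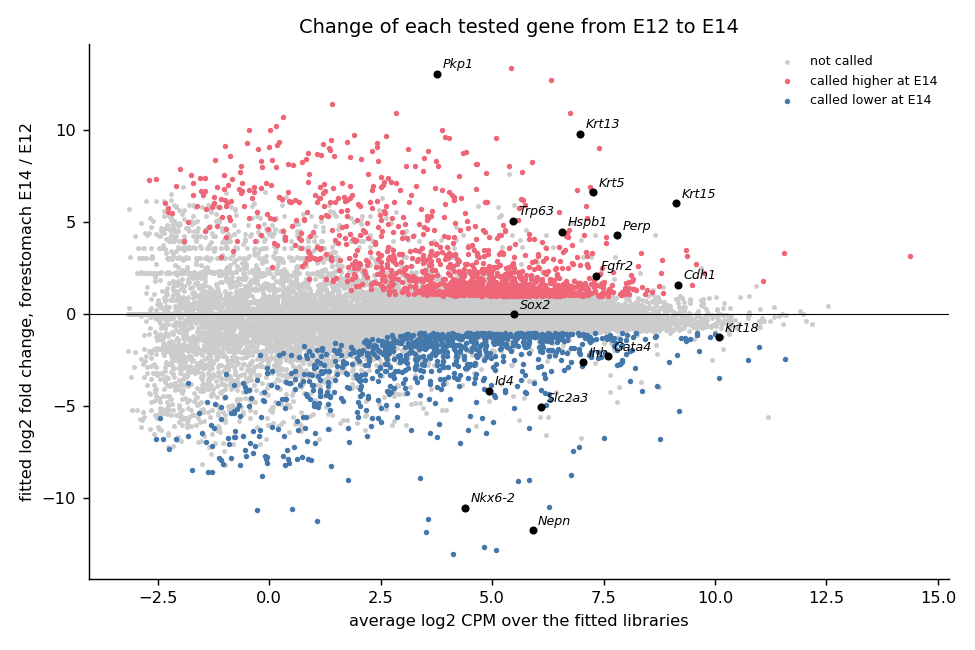
Fitted log2 fold change of forestomach E14 over E12 against average log2 CPM, 1 point for each of the 17239 tested genes, red for the 1307 called higher and blue for the 885 called lower. Krt15, Krt5 and Perp stand out above 0 at high average levels, Krt18 and Gata4 lie below 0, and Sox2 lies on the line at 0.

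Among the 12 genes named for the largest fitted increase was Cbr2, a carbonyl reductase gene, with no count at E12 and 56.2 and 53.1 CPM at E14, at least 596-fold higher (adjusted p = 1.08e-07). Pkp1, which encodes a desmosomal plaque protein, rose from 0 counts to 51.2 and 37.3 CPM, at least 483-fold (adjusted p = 6.35e-09). Aqp3, a water and glycerol channel of basal squamous cells, went from 0 to 32.7 and 37.8 CPM, at least 385-fold (adjusted p = 6.38e-09). Cav1, the scaffold of caveolae, reached 12.7 and 7.41 CPM and Sh3rf2, a RING finger gene, 11.1 and 8.93 CPM. The remaining 7 were Adamdec1, Krt13, Hes2, Mocos, F13a1, Krt6a and Cyp2w1, all at 0 counts in both E12 libraries and between 2.01 and 5.65 CPM at E14. Their bounds ran from at least 36.01-fold for Cyp2w1 to at least 58.4-fold for Adamdec1. All 12 were at 0 counts at E12, where the fitted change depends on the prior count, so they are examples and not a ranking of rises.

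The 12 genes named for the largest fitted decrease, likewise examples and not a ranking, included Nkx6-3, a homeobox gene of the glandular stomach, which went from 40.7 and 47.9 CPM at E12 to 0 counts at E14, at least 374-fold lower (adjusted p = 5.55e-06). Its relative Nkx6-2 went from 149 and 158 CPM to 0.128 and 0.0723 CPM (log2 fold change -10.53 ± 0.53 (SE), adjusted p = 6.68e-10). Nepn fell from 346 and 359 CPM to 0 and 0.181 CPM (log2 fold change -11.74 ± 0.52 (SE), adjusted p = 1.38e-09). The E14 hindstomach held 54.5 and 55.2 CPM of Nkx6-3, 48.5 and 48.7 CPM of Nkx6-2 and 284 and 271 CPM of Nepn, so both E12 forestomach libraries were above it for Nkx6-2 and Nepn and below it for Nkx6-3. Sfrp5, a secreted Wnt inhibitor, fell from 31.96 and 36.00 CPM to 3 counts in both E14 libraries together, 583-fold (95% exact interval 199 to 2830.5) lower (adjusted p = 1.84e-09). Spock1, a secreted proteoglycan gene, also fell to 3 counts, 503-fold (95% exact interval 172 to 2439) lower. Galnt6 (8.46 and 6.24 CPM at E12), Ms4a8a (2.64 and 2.77 CPM) and Cdx2 (2.33 and 2.15 CPM) were at 0 counts at E14. The other 4 were the Y-linked genes Ddx3y, Eif2s3y, Uty and Kdm5d. Ddx3y was at 32.4 and 34.6 CPM at E12, 0 counts at E14 and 20.99 and 31.5 CPM at E16. The sex of the embryos in each pool is not labelled, so sex and day cannot be told apart for sex-linked genes, and its part in other genes was not tested.

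Squamous keratins were far higher at E14 than at E12. Keratins are the intermediate filaments of epithelia, and of the 15 tested, 10 were called higher and 2 lower, with a median log2 fold change of 3.82. Krt15, a basal keratin, stood at 20.6 and 19.95 CPM at E12 and 1302 and 1369 CPM at E14 (log2 fold change 6.04 ± 0.51 (SE), adjusted p = 1.12e-07). Krt5 went from 3.45 and 3.83 CPM to 352 and 379.7 CPM (log2 fold change 6.64 ± 0.88 (SE), adjusted p = 2.98e-05). Both E14 libraries were far above both E12 libraries for each, and the 2 replicates of a day differed little beside that gap. Krt17, found in basal cells and skin appendages, went from 0.81 and 0.543 CPM to 29.1 and 25.1 CPM (log2 fold change 5.33 ± 1.03 (SE), adjusted p = 0.00113). Krt14, the usual partner of Krt5, was called too, yet only reached 2.91 and 2.49 CPM from 0.0705 and 0.104 CPM (log2 fold change 4.84 ± 1.37 (SE), adjusted p = 0.0149). Krt13 and Krt6a, at 0 counts at E12, reached 3.81 and 5.39 and 3.77 and 3.98 CPM, at least 50.1-fold higher for the first and at least 42.2-fold for the second. Krt4, Krt13's partner in wet squamous linings, stood at 0 and 0.854 CPM and then 5.52 and 8.31 CPM (log2 fold change 3.85 ± 0.80 (SE), adjusted p = 0.00176), and its log2 fold change was 10.4 without E12 replicate 2.

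The keratins of simple, single-layered epithelia took another course. Krt19, which basal squamous cells share, rose from 219.6 and 218 CPM to 751 and 751 CPM (log2 fold change 1.78 ± 0.21 (SE), adjusted p = 7.87e-06). Krt18 fell from 856 and 822 CPM to 353 and 355 CPM (log2 fold change -1.25 ± 0.16 (SE), adjusted p = 2.15e-05). Its partner Krt8 did not pass the test, at 1290.3 and 1324 CPM and then 987 and 1023 CPM (log2 fold change -0.38 ± 0.22 (SE), adjusted p = 0.23), and neither did Krt7, at 337 and 297 CPM and then 367 and 377 CPM (adjusted p = 0.466). Krt20 was called lower (log2 fold change -1.26 ± 0.36 (SE), adjusted p = 0.0152), but lost its call without any 1 of the 4 libraries. Krt80 did so too, and Krt14 lost its call without 3 of them. The count of keratins called higher then ran from 8 to 9, with 1 lower in each case.

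**Figure D3:**
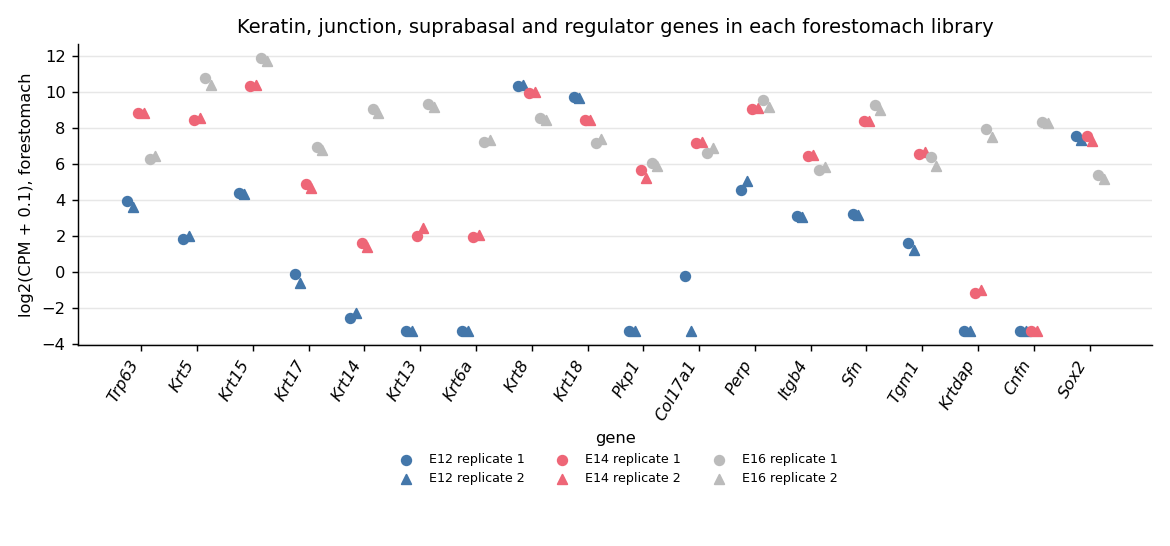
Levels of 18 genes in each forestomach library as log2(CPM + 0.1), blue for E12, red for E14 and grey for E16, with circles for replicate 1 and triangles for replicate 2. A library with no count sits at the bottom of the scale. Krt5, Krt15, Trp63, Perp and Sfn are separated between E12 and E14 by far more than the replicates of a day, Krtdap is near the bottom until E16, Cnfn is at 0 until E16, and the Sox2 points of E12 and E14 overlap.

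Genes of desmosomes and hemidesmosomes, the junctions that hold a layered epithelium together and to its base, rose in most cases. Of 19 tested, 13 were called higher and 0 lower, with 1 lower at an unadjusted p below 0.05 and 0 lower by DESeq2, and a median log2 fold change of 1.78. Perp, a p63 target at desmosomes, went from 22.97 and 32.7 CPM to 534 and 551 CPM (log2 fold change 4.28 ± 0.34 (SE), adjusted p = 4.93e-08). Itgb4, the integrin subunit of hemidesmosomes, went from 8.53 and 8.31 CPM to 86.8 and 89.7 CPM (log2 fold change 3.39 ± 0.21 (SE), adjusted p = 2.03e-09). Col17a1 was at 0.74 and 0 CPM and then 141 and 149 CPM (log2 fold change 8.74 ± 0.82 (SE), adjusted p = 1.55e-06). Its fitted change rests on a single E12 library and was 14.8 without that one, with the call kept. Lama3, a laminin chain of the basement membrane, rose from 2.40 and 2.90 CPM to 26.1 and 32.5 CPM (log2 fold change 3.46 ± 0.81 (SE), adjusted p = 0.00418). Lamb3, another laminin chain, had a log2 fold change of 2.02, and its adjusted p was 0.0503 without E12 replicate 1. Among widely used junction genes, Jup rose from 132 and 139 CPM to 411 and 452 CPM and Dsp, desmoplakin, from 84.4 and 67.4 CPM to 193 and 205 CPM. The squamous desmoglein Dsg3 was called (0.352 and 0 CPM, then 2.57 and 5.13 CPM, adjusted p = 0.0204), a call lost without E12 replicate 2 or E14 replicate 2, and its log2 fold change of 4.49 was 9.54 without E12 replicate 1. The broadly expressed Dsg2 (log2 fold change 0.97 ± 0.20 (SE), adjusted p = 0.00133) and Dsc2 (log2 fold change 1.01 ± 0.61 (SE), adjusted p = 0.246) were not called.

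Suprabasal and cornified envelope genes included some that rose and some with no count at either day. Of 22 tested, 10 were called higher and 0 lower (0 at an unadjusted p below 0.05 and 0 by DESeq2). The median log2 fold change was 2.79, or 1.68 with the genes at 0 in one group placed at their bounds. Sfn, the 14-3-3 sigma protein of stratified epithelia, rose from 9.16 and 8.85 CPM to 340.4 and 339 CPM (log2 fold change 5.24 ± 0.32 (SE), adjusted p = 1.84e-09). Tgm1, a transglutaminase that crosslinks the envelope, rose from 2.92 and 2.17 CPM to 93.5 and 103 CPM (log2 fold change 5.27 ± 0.69 (SE), adjusted p = 1.88e-05). Serpinb5 was at 0 and 1.01 CPM and then 67.3 and 58.2 CPM (log2 fold change 6.83 ± 0.81 (SE), adjusted p = 1.9e-05), and its change was 13.5 without E12 replicate 2, the only E12 library with a count. The envelope scaffold Ppl (log2 fold change 3.29) and its partner Evpl (2.78) were called higher as well. Krtdap, a marker of differentiating keratinocytes, only reached 0.342 and 0.398 CPM, at least 4.04-fold higher, and lost its call without any 1 of the 4 libraries. Ly6d went from 2 counts to 27 counts over both libraries, 17.7-fold (95% exact interval 4.46 to 154), and was not called without E12 replicate 1 or E14 replicate 2. Its fitted log2 fold change of 3.93 was 6.66 without E12 replicate 2. Cnfn, Crct1, Rptn, Spink5 and Tgm3 had 0 counts in all 4 libraries. At E16 the forestomach libraries held 317 and 308 CPM of Cnfn, 241 and 181 CPM of Krtdap and 636 and 584 CPM of Krt13. Those E16 libraries also held more mesenchymal RNA, with Col3a1 at 4384 and 5048 CPM against 32.4 and 25.6 CPM at E14 and Epcam at 137 and 112 CPM. In the E16 libraries the blood list summed to 14611 and 19679 CPM, against 33.03 and 30.00 CPM at E14, and the immune list to 1137 and 865 CPM, against 13.6 and 13.1 CPM. The part of these cells in the E16 levels was not tested.

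Several regulators of stratified epithelium also rose, while the foregut factor Sox2 was not called. Of 26 tested, 14 were called higher and 0 lower (0 lower at an unadjusted p below 0.05 and 0 by DESeq2), with a median of 1.64. Without E14 replicate 1, 1 was called lower. Trp63 stood at 15.05 and 11.96 CPM at E12 and 455 and 458 CPM at E14 (log2 fold change 5.08 ± 0.59 (SE), adjusted p = 1.04e-05). Other members were called too. Zfp750, a repressor of progenitor genes, went from 1 count to 915 counts over both libraries, 1202-fold (95% exact interval 215 to 47513). Grhl3, a grainyhead factor of barrier epithelia, rose from 8.07 and 8.57 CPM to 176 and 194 CPM (log2 fold change 4.47 ± 0.60 (SE), adjusted p = 2.77e-05), and Tfap2c from 1.37 and 0.0518 CPM to 34.3 and 34.8 CPM (log2 fold change 5.63 ± 1.25 (SE), adjusted p = 0.00324). The Tfap2c change was between 4.65 and 9.25 over all settings, the upper end without E12 replicate 1. Ehf, an Ets factor, rose from 0.846 and 3.08 CPM to 29.8 and 39.1 CPM. Pitx1 rose from 237 and 216 CPM to 620.3 and 476 CPM (log2 fold change 1.28 ± 0.25 (SE), adjusted p = 0.000879). Sox2 was at 185 and 160.2 CPM at E12 and 189.8 and 153 CPM at E14, with overlapping groups (log2 fold change -0.01 ± 0.41 (SE), adjusted p = 1). Sox21 was not called either, at 119 and 132 CPM and then 140.4 and 159 CPM (adjusted p = 0.734).

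Several endoderm transcription factors fell. Of 30 tested, 15 were called lower and 1 higher, with a median of -1.24 and a count of lower calls of 13 to 14 when any 1 of the 4 libraries was left out. Gata4, needed for the glandular stomach, fell from 277 and 273 CPM to 55.7 and 58.1 CPM (log2 fold change -2.27 ± 0.22 (SE), adjusted p = 5.45e-07). Its relatives Gata5 (log2 fold change -1.29) and Gata6 (-1.19) fell too. Pdx1, of the antrum, duodenum and pancreas, fell from 27.5 and 24.6 CPM to 1.67 and 3.69 CPM (log2 fold change -3.27 ± 0.46 (SE), adjusted p = 5.58e-05). Onecut2, a cut homeobox factor of liver and pancreas, fell from 21.8 and 14.5 CPM to 0.171 and 0.0361 CPM (log2 fold change -7.45 ± 0.43 (SE), adjusted p = 1e-09). Nkx2-1, the lung and thyroid factor, fell from 11.98 and 11.9 CPM to 2 counts over both E14 libraries, 305-fold (95% exact interval 84.1 to 2523) lower. The nuclear receptors Hnf4a (log2 fold change -1.73) and Hnf4g (-1.85) fell, and so did Foxa3 (-1.37) and Hhex (-2.07). The pan-endodermal Foxa1 (421 and 462 CPM, then 311 and 345 CPM, adjusted p = 0.0534) and Foxa2 (121 and 132 CPM, then 94.1 and 91.3 CPM, adjusted p = 0.307) were not called, and Sox9 was not (log2 fold change 0.30 ± 0.16 (SE)). Foxq1, a forkhead gene of the stomach, rose from 21.1 and 13.1 CPM to 292 and 325 CPM (log2 fold change 4.18 ± 0.22 (SE), adjusted p = 6.68e-10). Onecut1 lost its call without any 1 of the 4 libraries, and Isx without any 1 but E12 replicate 2.

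Markers of other organs fell beside these factors. In the lung list, 4 of the 6 were tested and all 4 were called lower. They were Nkx2-1, Sftpa1, Sftpc and Etv5, the last of which is also in the FGF and EGF list. Sftpc, surfactant protein C, fell from 8.67 and 9.21 CPM to 0 and 0.0723 CPM. Sftpc lost its call without E14 replicate 1 (adjusted p = 0.0588), and Sftpa1 lost its call without any 1 of the 4 libraries, with DESeq2, which called 3 of the 4 lung genes, and with no filter on low counts. In the liver list it was 5 of 6, with Afp from 63.1 and 73.7 CPM to 5.69 and 6.80 CPM (log2 fold change -3.45 ± 0.33 (SE), adjusted p = 5.86e-07) and Alb from 8.60 and 7.38 CPM to 0 counts. Apoa2, another of the 5, was not called with only WT libraries or without either E12 library or E14 replicate 1. Gcg, the glucagon gene that gut endocrine cells also use, fell from 272 and 247 CPM to 14.8 and 11.5 CPM (log2 fold change -4.30 ± 0.68 (SE), adjusted p = 0.000138), and with Pdx1 made 2 of 6 in the pancreas list. In the blood list, 3 of the 5 tested fell, all embryonic globins, with Hbb-y at 188 and 165 CPM and then 27.8 and 25.95 CPM, a call lost without either E14 library. None of 10 immune and none of 8 endothelial markers was called by edgeR; at an unadjusted p below 0.05, 1 and 2 passed, and DESeq2 called 0 and 1. Mesenchyme and smooth muscle markers went both ways, 4 higher and 3 lower of 15, at a summed level of 152 and 147 CPM at E12 and 152 and 144 CPM at E14. The 4 higher were the smooth muscle genes Acta2, Actg2, Myh11 and Tagln, and the 3 lower were Barx1, Postn and Vim. Myh11 and Tagln were not called with only the groups compared, and Myh11 was not called by DESeq2. Over all settings the Myh11 log2 fold change ran from 1.73 to 6.02. The immune list summed to 8.25 and 11.8 CPM at E12. The mesothelium list summed to 233 and 238 CPM at E12 and 768 and 765 CPM at E14, with 2 of 6 called higher and 0 lower (1 lower at an unadjusted p below 0.05 and 0 by DESeq2). Most of that sum was Krt19, which squamous cells also make, and the other gene called was Upk1b, from 1.09 and 0.129 CPM to 9.20 and 7.16 CPM, a call lost without E12 replicate 2. In the intestine list 4 of 6 were called lower (Cdx2, Hnf4a, Isx and Vil1), at a summed 53.2 and 68.2 CPM and then 20.9 and 24.003 CPM. Vil1 was not called with only the groups compared, with only WT libraries, or without E12 replicate 1 or E14 replicate 1. In the nerve and glia list 2 of 9 were called lower (Elavl3 and Stmn2), at a summed 19.5 and 25.7 CPM and then 14.2 and 13.2 CPM. Elavl3 lost its call without either E14 library and Stmn2 without E14 replicate 1. Acta2, smooth muscle actin, rose from 1.34 and 1.42 CPM to 15.5 and 15.4 CPM, and Postn fell from 7.82 and 5.49 CPM to 0 and 0.0723 CPM.

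Calls among differentiation genes of the glandular organs went both ways. Of 21 intestinal genes tested, 4 were called lower and 2 higher, and with only the groups compared in the fit 1 was called lower. Apoa1, an enterocyte and liver apolipoprotein, fell from 32.4 and 26.97 CPM to 7.57 and 9.62 CPM (log2 fold change -1.78 ± 0.18 (SE), adjusted p = 1.22e-06), while the stem cell genes Olfm4 (0.564 and 0.518 CPM, then 2.48 and 4.59 CPM, adjusted p = 0.000257) and Ascl2 (0.388 and 0.699 CPM, then 3.25 and 3.43 CPM, adjusted p = 0.000132) rose at low levels. Of 18 gastric glandular genes tested, 4 were called higher, or 2 with only the groups compared, and 1, Gata4, lower. Atp4b, the beta subunit of the acid pump of parietal cells, went from 2 counts over both E12 libraries to 9.84 and 12.1 CPM, 371-fold (95% exact interval 102.23 to 3071) and adjusted p = 1.38e-06. Ctse, cathepsin E of gastric surface cells, rose from 3.81 and 2.20 CPM to 17.9 and 18.9 CPM (log2 fold change 2.64 ± 0.46 (SE), adjusted p = 0.000374). Anxa10 and Muc5ac, called at low levels, lost their calls without E14 replicate 1, where 2 were called. Anxa10 was also not called without E12 replicate 2, and Muc5ac without E12 replicate 1, with only the groups compared or with only WT libraries. The Muc5ac log2 fold change of 1.97 was 3.96 without E12 replicate 2 and 1.28 without E12 replicate 1. The gastric claudin Cldn18 was at 12.5 and 15.1 CPM and then 13.4 and 13.1 CPM (log2 fold change -0.06 ± 0.30 (SE)), and Vsig1 at 20.1 and 26.3 CPM and then 21.9 and 22.8 CPM. Muc1 was not called (log2 fold change -0.61 ± 0.24 (SE)).

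**Figure D4:**
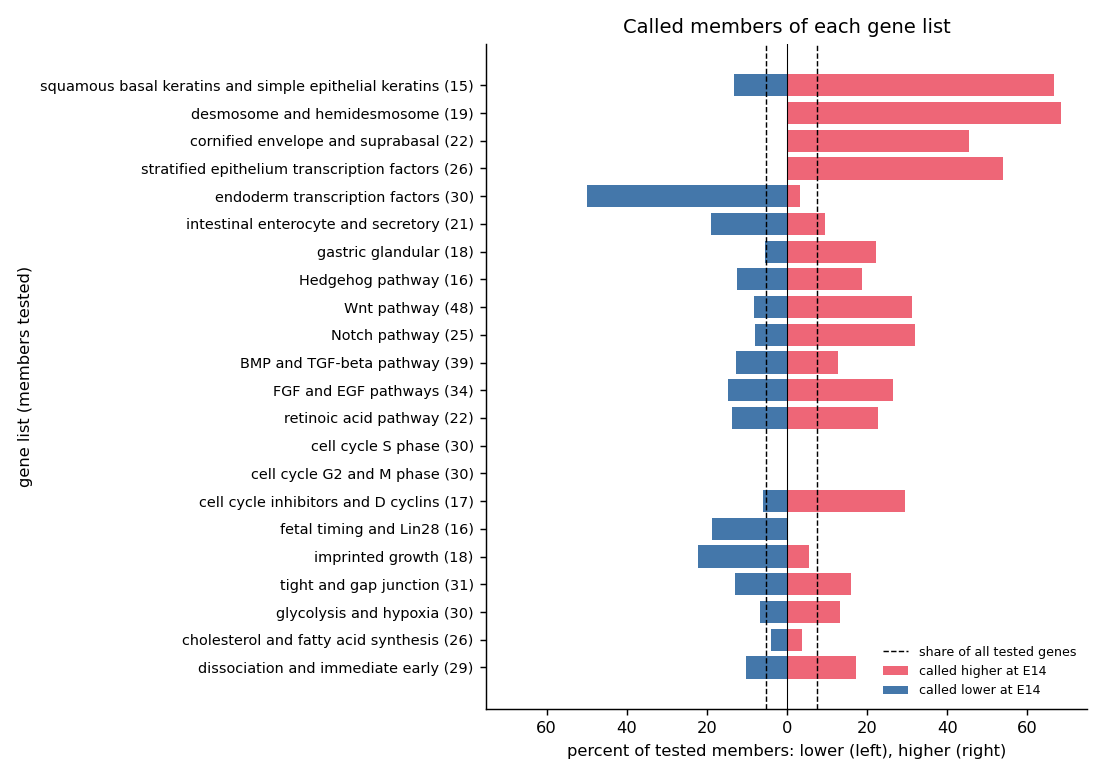
Percent of the tested members of each of 22 gene lists called higher (red, right) or lower (blue, left) at E14, with the number tested in brackets and dashed lines at the 7.58% and 5.13% of all tested genes. The keratin, desmosome, cornified and stratified factor lists extend to the right, the endoderm factor list to the left, and both lists of cell cycle phases have no bar.

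Among signalling genes, the 2 hedgehog ligands of the gut endoderm parted. Hedgehog ligands are made by the gut epithelium and read mostly by the mesenchyme around it. Shh rose from 104 and 96.4 CPM to 208 and 197 CPM (log2 fold change 1.01 ± 0.26 (SE), adjusted p = 0.00742), close to the 2-fold limit, and was not called with RLE scaling, with DESeq2, or without E12 replicate 2 or E14 replicate 1. Ihh fell from 171 and 179 CPM to 24.7 and 32.8 CPM (log2 fold change -2.60 ± 0.19 (SE), adjusted p = 1.41e-08). For both genes the E12 and E14 libraries did not overlap. The co-receptor Boc (log2 fold change 1.98) and the effector Gli3 (1.39) were called higher, while the target and receptor Ptch1 was not (9.73 and 14.1 CPM, then 28.7 and 26.9 CPM, adjusted p = 0.108). In all, 3 of 16 were called higher and 2 lower, with a median of 0.21, and Dhh lost its call without any 1 library, which left 1 lower. Without E12 replicate 2, 1 was called higher, and with only the groups compared 5 were.

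Wnt genes were called in both directions. Of 48 tested, 15 were called higher (31.2%) and 4 lower (8.33%), against 7.58% and 5.13% of all tested genes, with a median of 0.66, or 0.41 with genes at 0 placed at their bounds. Without E12 replicate 1, 7 were called higher, and without E12 replicate 2 or E14 replicate 1, 2 were called lower. Among ligands Wnt4 rose from 4.72 and 7.97 CPM to 64.4 and 59.4 CPM (log2 fold change 3.28 ± 0.50 (SE), adjusted p = 0.000102), and Wnt7b was lower (log2 fold change -1.98 ± 0.60 (SE), adjusted p = 0.0239) with its call lost without any 1 of the 4 libraries. Among receptors Lgr4 rose from 62.3 and 51.2 CPM to 151 and 161 CPM (log2 fold change 1.46 ± 0.19 (SE), adjusted p = 1.52e-05) and Fzd6 from 22.2 and 32.2 CPM to 86.6 and 72.3 CPM (log2 fold change 1.54 ± 0.24 (SE), adjusted p = 0.00011), and Fzd5 fell from 42.1 and 30.7 CPM to 6.16 and 4.23 CPM (log2 fold change -2.81 ± 0.25 (SE), adjusted p = 2.35e-07). Axin2, a feedback inhibitor of the pathway, went from 1.13 and 1.73 CPM to 19.2 and 17.03 CPM (log2 fold change 3.65 ± 0.54 (SE), adjusted p = 8.41e-05), and the receptor-removing ligase Rnf43 from 19.9 and 23.8 CPM to 162 and 149 CPM (log2 fold change 2.83 ± 0.22 (SE), adjusted p = 3.43e-08). Its relative Znrf3 rose from 16.3 and 16.04 CPM to 52.4 and 55.7 CPM, and Notum, an enzyme that inactivates Wnt, from 20.9 and 17.3 CPM to 174 and 176 CPM (adjusted p = 0.00687, 0.065 at most without either E12 library). Lgr6, at 0 counts at E12, reached 3.38 and 2.68 CPM, at least 33.03-fold higher, with its call lost without either E12 library.

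Notch1, Notch3 and Jag2 rose while Dll1 fell. Of 25 tested, 8 were called higher and 2 lower, with a median of 0.43, against 4 to 7 higher when any 1 of the 4 libraries was left out, the 4 being without E14 replicate 2 and the 5 without either E12 library. Jag2 rose from 5.00 and 4.79 CPM to 74.5 and 107 CPM (log2 fold change 4.22 ± 0.80 (SE), adjusted p = 0.00074), Notch1 from 32.6 and 36.3 CPM to 82.02 and 99.3 CPM (log2 fold change 1.40 ± 0.22 (SE), adjusted p = 0.00015) and Notch3 from 53.8 and 46.3 CPM to 115 and 143 CPM (log2 fold change 1.36 ± 0.31 (SE), adjusted p = 0.00287). Dll1, a ligand of secretory and endocrine progenitors, fell from 21.00 and 24.4 CPM to 3.85 and 5.10 CPM (log2 fold change -2.34 ± 0.29 (SE), adjusted p = 1.21e-05). The endocrine progenitor factor Neurog3 rose at a low level, from 1.30 and 2.59 CPM to 17.5 and 14.8 CPM (log2 fold change 3.04 ± 0.57 (SE), adjusted p = 0.000805). The target Hes1 was not called (231 and 210.1 CPM, then 232 and 225 CPM, adjusted p = 0.967).

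In the BMP and TGF-beta list 5 of 39 were called higher and 5 lower (12.8% each way, median 0.16), against 7.58% and 5.13% of all tested genes. Without E12 replicate 2 it was 2 each way. With only the groups compared in the fit, 8 were called higher and 6 lower. Without either E14 library 3 were called higher and 2 lower. Id4, an inhibitor of helix-loop-helix factors, fell from 117 and 111 CPM to 6.76 and 5.93 CPM (log2 fold change -4.17 ± 0.33 (SE), adjusted p = 4.95e-08), and the BMP pseudoreceptor Bambi from 57.7 and 56.6 CPM to 16.2 and 20.9 CPM (log2 fold change -1.62 ± 0.19 (SE), adjusted p = 4.31e-06). Id3, of the same family as Id4, was called higher, from 184 and 159.7 CPM to 390.3 and 354 CPM (log2 fold change 1.11 ± 0.34 (SE), adjusted p = 0.0226), and lost its call without any 1 of the 4 libraries. Tgfb1 was called higher at a low level, from 0.247 and 0.104 CPM to 3.17 and 3.54 CPM, and Tgfb3 was called lower, from 8.10 and 10.5 CPM to 1.33 and 1.23 CPM. Both lost their calls without E12 replicate 2, Tgfb3 also without either E14 library.

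The FGF and EGF list had calls in both directions. Of 34 tested, 9 were called higher and 5 lower, with a median of -0.24. Fgfr2, the receptor for mesenchymal FGF ligands, rose from 185 and 216 CPM to 822 and 887 CPM (log2 fold change 2.09 ± 0.15 (SE), adjusted p = 1.13e-08), and Fgfr3 from 47.1 and 44.9 CPM to 204 and 205 CPM (log2 fold change 2.15 ± 0.19 (SE), adjusted p = 2.42e-07). Fgfr4, an endodermal receptor, fell from 46.6 and 36.9 CPM to 16.7 and 19.3 CPM (log2 fold change -1.21 ± 0.18 (SE), adjusted p = 0.000103). The Ets factor Etv4, which FGF signalling induces, fell from 48.8 and 45.2 CPM to 2.82 and 2.78 CPM (log2 fold change -4.07 ± 0.34 (SE), adjusted p = 9.68e-08), and its relative Etv5 from 132 and 131 CPM to 59.9 and 57.8 CPM (log2 fold change -1.16 ± 0.22 (SE), adjusted p = 0.000801). The feedback phosphatase Dusp6 fell from 90.98 and 96.2 CPM to 38.6 and 35.2 CPM (log2 fold change -1.34 ± 0.19 (SE), adjusted p = 6e-05), and the feedback inhibitor Spry4 fell as well, with a call lost without E14 replicate 1, and its log2 fold change of -3.91 was -10.0 without E14 replicate 2. Egfr rose from 0.423 and 0.233 CPM to 7.02 and 5.39 CPM (log2 fold change 4.26 ± 0.66 (SE), adjusted p = 0.000117), Erbb3 from 24.7 and 29.3 CPM to 74.3 and 93.3 CPM and Erbb2 from 64.5 and 66.6 CPM to 141 and 154 CPM, and the ligand Tgfa from 10.5 and 12.1 CPM to 30.7 and 30.4 CPM.

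Retinoic acid genes changed at several steps of the pathway, with 5 of 22 called higher and 3 lower and a median of -0.11. Rarg, the receptor most used by squamous epithelia, rose from 12.1 and 11.8 CPM to 87.1 and 102.45 CPM (log2 fold change 2.99 ± 0.29 (SE), adjusted p = 7.29e-07), and its partner Rxra from 31.01 and 36.5 CPM to 103 and 113 CPM (log2 fold change 1.68 ± 0.19 (SE), adjusted p = 4.9e-06). Dhrs3, a reductase that lowers retinaldehyde and is induced by retinoic acid, rose from 28.3 and 28.9 CPM to 139.7 and 147 CPM (log2 fold change 2.33 ± 0.21 (SE), adjusted p = 2.77e-07). Dhrs9, at 0 counts at E12, reached 1.97 and 2.10 CPM, at least 22.2-fold higher. Rbp4, the retinol carrier of endoderm and liver, fell from 107 ± 8.31 CPM (SD, n = 2) to 25.8 ± 3.95 CPM (SD, n = 2) (log2 fold change -2.05 ± 0.16 (SE), adjusted p = 3.55e-08). The synthesising enzymes Aldh1a1 (higher) and Aldh1a2 (lower) were called in opposite directions, and both lost their calls without either E12 library or E14 replicate 2. Aldh1a1 was also not called by DESeq2. Without either E12 library 1 member was called lower.

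**Figure D5:**
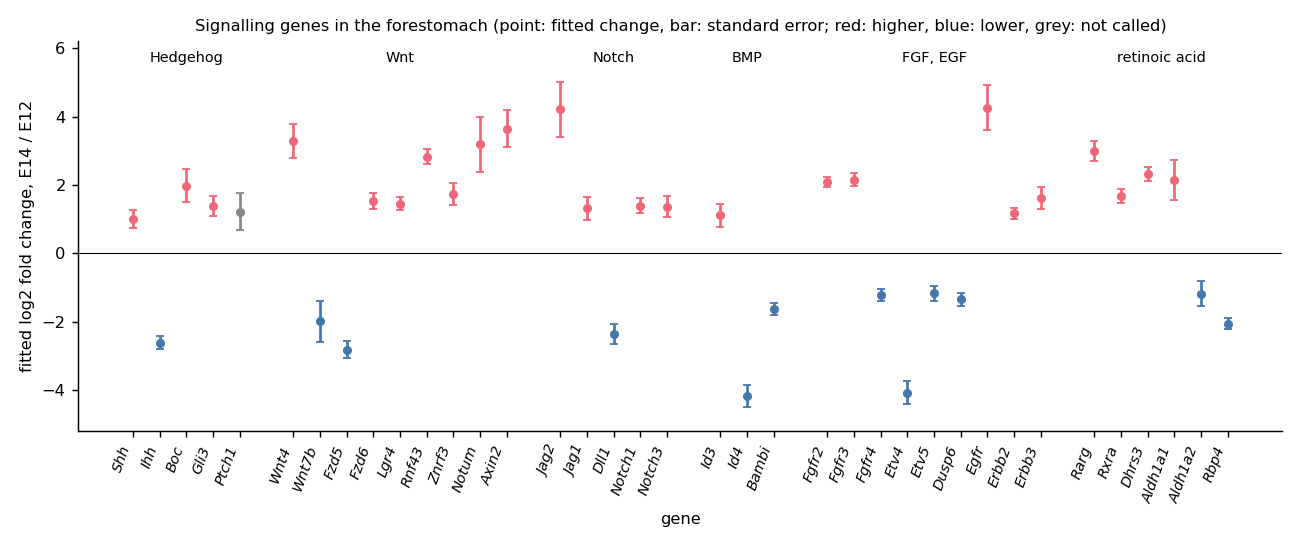
Fitted log2 fold change of forestomach E14 over E12 for 37 signalling genes, grouped by pathway, with points for the fitted change and bars for its standard error, red where called higher, blue where called lower and grey where not called. Shh lies above 0 and Ihh below it, Fgfr2 and Fgfr3 lie above 0 and Etv4, Etv5 and Dusp6 below, and Id3 and Id4 lie on opposite sides.

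No gene of the S, G2 and M phase lists was called at the 2-fold limit. Of 30 S phase genes and 30 genes of G2 and M phase, edgeR called 0 and DESeq2 called 0, with medians of -0.40 and -0.06. Without E12 replicate 1, 1 S phase gene was called lower. At an adjusted p below 0.05 and any size of change, 13 S phase genes were lower and 1 higher, and for G2 and M phase 5 were lower and 6 higher, where 12.9% of all tested genes were lower and 12.4% higher. At an unadjusted p below 0.05, 15 S phase genes were lower and 3 higher, and for G2 and M phase 6 were lower and 7 higher. Fitted log2 fold changes ran from -0.90 (Ccne2) to 0.60 (Pola1) in the first list and from -0.61 (Cks2) to 0.69 (Anln) in the second. The proliferation marker Mki67 was at 103 and 86.5 CPM and then 147 and 146 CPM (log2 fold change 0.62 ± 0.19 (SE)). The G1 cyclin Ccnd1 fell from 201 and 233 CPM to 89.4 and 82.2 CPM (log2 fold change -1.34 ± 0.20 (SE), adjusted p = 0.000102). Among inhibitors, 5 of 17 members of the list were called higher, Cdkn2b and Rb1 among them, but 1 was called higher without E12 replicate 1, E12 replicate 2 or E14 replicate 2.

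Several genes that mark early developmental time fell. Of 16 tested, 3 were called lower, or 5 with only the groups compared, and 0 higher (0 higher at an unadjusted p below 0.05 and 0 by DESeq2). Lin28a, the RNA-binding protein that holds back let-7 microRNAs, had 30 and 75 counts at E12 and 0 and 2 counts at E14, 39.98-fold (95% exact interval 10.8 to 334) lower, and lost its call without E14 replicate 1. Its fitted log2 fold change of -5.12 was -8.18 without E14 replicate 2. Trim71, a let-7 target and partner, fell from 24.1 and 26.3 CPM to 4.83 and 6.04 CPM (log2 fold change -2.21 ± 0.39 (SE), adjusted p = 0.000653), and Sall4, an early embryonic zinc finger factor, from 25.2 and 23.2 CPM to 4.02 and 2.57 CPM (log2 fold change -2.88 ± 0.63 (SE), adjusted p = 0.00299). Lin28b was not called (6.94 and 12.9 CPM, then 4.96 and 3.25 CPM, adjusted p = 0.485). Among 18 imprinted growth genes, 4 were called lower and 1 higher, or 2 higher without E14 replicate 2 or by DESeq2. Mest fell from 122 and 117 CPM to 20.3 and 22.6 CPM (log2 fold change -2.47 ± 0.19 (SE), adjusted p = 2.91e-08), Peg3 from 599 and 679.7 CPM to 134 and 152 CPM (log2 fold change -2.16 ± 0.30 (SE), adjusted p = 4.3e-05) and Dlk1, a Notch-like secreted protein gene, from 197 and 207 CPM to 52.8 and 51.6 CPM (log2 fold change -1.95 ± 0.21 (SE), adjusted p = 3.68e-06). Plagl1, a growth-restraining zinc finger gene, rose from 20.3 and 20.9 CPM to 155 and 147 CPM (log2 fold change 2.87 ± 0.33 (SE), adjusted p = 4.78e-06). Igf2 (log2 fold change 0.12 ± 0.25 (SE)) and H19 (log2 fold change 0.25 ± 0.15 (SE)) were not called.

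The classical cadherins moved in opposite directions. Cdh1, E-cadherin, rose from 232 and 241 CPM to 699 and 743 CPM (log2 fold change 1.61 ± 0.13 (SE), adjusted p = 3.92e-08), and Cdh2, N-cadherin, fell from 12.1 and 19.5 CPM to 1.11 and 1.63 CPM (log2 fold change -3.52 ± 0.64 (SE), adjusted p = 0.00074). Of the 31 junction genes tested, 5 were called higher and 4 lower, and 3 were called higher without E12 replicate 2 or E14 replicate 2. Cldn6, an embryonic claudin, fell from 743 and 705 CPM to 296 and 314 CPM (log2 fold change -1.25 ± 0.23 (SE), adjusted p = 0.000573), and Cldn9 from 24.4 and 23.6 CPM to 2.82 and 2.82 CPM (log2 fold change -3.09 ± 0.65 (SE), adjusted p = 0.00184). Gjb1, a connexin of liver and glands, fell from 5.29 and 6.34 CPM to 1.45 and 1.52 CPM (log2 fold change -1.97 ± 0.27 (SE), adjusted p = 3.74e-05).

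The 2 glucose transporters named here moved in opposite directions. Slc2a3, the neuronal and early embryonic transporter GLUT3, fell from 101.76 and 114 CPM to 3.64 and 2.82 CPM (log2 fold change -5.07 ± 0.27 (SE), adjusted p = 6.68e-10), and Slc2a1, GLUT1, rose from 135 and 117 CPM to 241 and 290.3 CPM (log2 fold change 1.08 ± 0.16 (SE), adjusted p = 9.34e-05). The Slc2a1 change fell under 2-fold without E12 replicate 2 or E14 replicate 2. In the glycolysis and hypoxia list 4 of 30 were called higher (13.3%) and 2 lower (6.67%), against 7.58% and 5.13% of all tested genes, and 2 were called higher without either of those libraries. In the cholesterol and fatty acid list 1 of 26 was called in each direction, Acaca higher and Sc5d lower, which is under the shares of all genes. Without E14 replicate 1 it was 2 higher and 0 lower. Among 29 genes of cell dissociation and stress, 5 were called higher and 3 lower. Hspb1, a small heat shock protein gene that stratified epithelia also use, rose from 11.3 and 9.86 CPM to 244 and 228 CPM (log2 fold change 4.48 ± 0.33 (SE), adjusted p = 1.51e-08). Fosl2, an AP-1 subunit, rose from 7.33 and 3.70 CPM to 59.6 and 78.3 CPM (log2 fold change 3.66 ± 0.25 (SE), adjusted p = 6.38e-09), while Fosb fell from 26.5 and 18.97 CPM to 4.58 and 2.17 CPM (log2 fold change -2.76 ± 0.36 (SE), adjusted p = 1.9e-05). The count of higher calls was 2 without E12 replicate 2 or E14 replicate 2 and 3 without E12 replicate 1. The nuclear RNA Malat1 was at 2262 and 2046 CPM at E12 and 447 and 357 CPM at E14 (log2 fold change -2.42 ± 0.43 (SE), adjusted p = 0.000417), a shift that the small intestine libraries also showed, at 2299 and 2299 CPM and then 1012 and 214 CPM. Its part in the other changes was not tested.

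The change from E12 to E14 was set against that of the small intestine, to ask which changes the forestomach did not share. The difference of the log2 changes passed for 1178 genes, 6.83% of those tested, of which 400 were higher in the forestomach and 778 lower. The median difference over all tested genes was -0.11. The baseline was uneven: small intestine E12 replicate 1 had 13232 genes with a count against 15507 in replicate 2. Without replicate 1 the count was 1260, and without replicate 2 it was 3463. With only the 4 groups in the fit, it was 461.

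Sox2 was not called in the forestomach and fell in the small intestine, from 6.63 and 3.41 CPM to 0.122 and 0.0394 CPM, and the difference of the log2 changes was 5.58 ± 0.82 (SE), adjusted p = 0.000303. Perp rose more in the forestomach, by a difference of 3.58 ± 0.44 (SE), adjusted p = 2.89e-05, and so did Sfn (2.77 ± 0.40 (SE), adjusted p = 0.000184) and Hspb1 (4.51 ± 0.43 (SE), adjusted p = 1.51e-06). Trp63 also differed (5.46 ± 1.03 (SE), adjusted p = 0.00267), but not without small intestine E12 replicate 2, where the sign turned to -1.23. Krt15 passed (4.04 ± 1.22 (SE), adjusted p = 0.0477) in 8 of 15 settings, and without small intestine E12 replicate 2 its sign turned to -1.45. In the small intestine it stood at 0 and 0.446 CPM and then 0.925 and 0.947 CPM. Gata4 was at 195 and 145 CPM and then 251 and 277 CPM in the small intestine, and the difference was -2.91 ± 0.30 (SE), adjusted p = 3.97e-06. Falls in the forestomach also exceeded the small intestine change for Onecut2 (-7.58 ± 0.51 (SE), adjusted p = 4.38e-08), Sfrp5 (-8.92 ± 0.65 (SE), adjusted p = 6.04e-08), Ihh (-2.91 ± 0.25 (SE), adjusted p = 5.52e-07), Etv4 (-3.83 ± 0.44 (SE), adjusted p = 1.3e-05) and Slc2a3 (-4.87 ± 0.34 (SE), adjusted p = 4.64e-08). Small intestine Slc2a3 stood at 205 and 248 CPM at E12 and 187 and 207 CPM at E14. Apart from Trp63 and Krt15, the genes named so far in this paragraph passed in all 15 settings.

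For other genes the difference did not pass. Mest had a log2 change of -2.53 in the small intestine, and the difference was 0.06 ± 0.25 (SE), adjusted p = 1. The differences for Ccnd1 (-0.04 ± 0.28 (SE), adjusted p = 1), Cdh1 (0.26 ± 0.17 (SE), adjusted p = 0.437), Krt19 (0.34 ± 0.29 (SE), adjusted p = 0.59), Itgb4 (0.33 ± 0.29 (SE), adjusted p = 0.606) and Etv5 (-0.10 ± 0.31 (SE), adjusted p = 0.972) did not pass in any setting. With the standard errors given, these differences are not shown to be 0. Grhl3 rose in the small intestine too, from 0 and 1.37 CPM to 31.8 and 32.5 CPM, with a difference of -1.05 ± 0.82 (SE), adjusted p = 0.54 that passed only without small intestine E12 replicate 2.

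Against the libraries labelled hindstomach the difference of changes passed for 1646 genes, 9.55% of those tested. This number rests on E12 libraries that do not carry hindstomach markers, so it gives no comparison with a change of the hindstomach. At E14, where the hindstomach libraries did carry them, Trp63 stood at 7.55 and 7.93 CPM, Krt5 at 2.36 and 2.78 CPM and Krt15 at 16.7 and 16.9 CPM, all below both E14 forestomach libraries. Gata4 at 358 and 338 CPM in the E14 hindstomach was above both E12 forestomach libraries.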

How the data were processed

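Only the RNA-seq count table of the series was used here. Chromatin samples (ATAC-seq, ChIP-seq) were left out. The authors deposited raw counts, whole reads per gene symbol with no normalization. The submitters' processing notes name STAR 2.5.3a, HTSeq, Bowtie2, MACS2 and the build mm9 with no role, and the strand setting is not given in the sources used here, so overlapping, antisense and near-identical genes may be counted together. The promoter sequences are from GRCm38.p6 and no coordinate of the counts is used. The table has 24015 genes, 2 rows with no gene name, which hold no embryonic counts, and 2 columns that match no sample; adult columns were not used.

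One edgeR 4.0.16 fit held all 27 embryonic libraries, wild type and Cdx2 mutant, in 13 groups, run in R 4.3.3 with TMM scaling, filterByExpr with a minimum count of 10, and the quasi-likelihood test. A gene was called at a Benjamini-Hochberg adjusted p below 0.05 over all 17239 genes tested and a log2 fold change of at least 1. Standard errors are the log2 fold change over the root of F. Differences between organs were contrasts in the same fit. Where a group had 0 counts, folds are against 3 counts in each library; at 1 to 3 counts a 95% exact interval is given. Reads are not independent molecules, so floors and intervals cover counting error only. Code was tested on simulated counts. DESeq2 1.42.0, RLE scaling, no filter, fewer libraries in the fit, thinned counts, the replicate block, no fold minimum and each library left out were tried.

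The members and gene lists were chosen with earlier results of these data known. Genes named are the 12 called genes with the largest fitted change in each direction (average log2 CPM of at least 2, groups not overlapping), called members of each list with at most 4 in full plus key members whether called or not, and, for each difference between organs, the 4 largest in each direction that were called in both tests. Values of further list members were added for context. Same-numbered E12 and E14 libraries had a correlation of deviations of -0.01, so numbers were not taken to pair them.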

Additional observations from a re-analysis of the deposited data

Results flagged for a closer look

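These values stand out because the change from E12 to E14 in the forestomach differed from that between 2 other labelled groups, by a test of the difference itself. The differences are fitted values; where a group is at 0 counts they depend on the prior count and are no bound. Against the small intestine 1178 genes passed, and the 4 largest in each direction that also changed in the forestomach were as follows. The forestomach change was higher for Cav1 by 11.38 ± 1.84 (SE), adjusted p = 0.000604, for Sh3rf2 by 10.62 ± 2.09 (SE), adjusted p = 0.0031, for Cyp2f2 by 10.45 ± 2.44 (SE), adjusted p = 0.0131 and for S1pr1 by 10.44 ± 1.91 (SE), adjusted p = 0.00145. S1pr1, a sphingosine phosphate receptor gene, was at 0.0352 and 0 CPM in the forestomach at E12 and 10.8 and 11.1 CPM at E14, and in the small intestine at 0.879 and 5.13 CPM and then 1.25 and 1.06 CPM. Sh3rf2 and Cyp2f2 did not pass with only the compared groups in the fit or without small intestine E12 replicate 2. The forestomach change was lower for Myrfl (-15.32 ± 1.23 (SE), adjusted p = 1.64e-06), Ms4a8a (-14.66 ± 1.33 (SE), adjusted p = 3.64e-06), Ccl20 (-14.61 ± 1.40 (SE), adjusted p = 3.89e-06) and Nkx6-3 (-14.57 ± 1.71 (SE), adjusted p = 2.24e-05). Ccl20, a chemokine gene, was at 0.317 and 0.466 CPM and then 0 counts in the forestomach, and at 0 counts and then 2.04 and 1.22 CPM in the small intestine.

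Against the libraries labelled hindstomach 1646 genes passed. The 4 largest higher were Slc47a1 (16.66), Krt6a (13.59), Krtdap (11.59) and Aqp3 (11.40), and the 4 largest lower were Nkx6-3 (-23.66), Nkx6-2 (-20.95), Sfrp5 (-19.45) and Ms4a8a (-18.83), as differences of log2 changes. In the libraries labelled hindstomach, Nkx6-2 was at 0.0308 and 0.0299 CPM at E12 and 48.5 and 48.7 CPM at E14, and Aqp3 at 1.57 and 0.808 CPM and then 2.82 and 3.20 CPM. The E12 libraries of this contrast go against their label, so no change of the hindstomach was measured, and the values compare the forestomach with those libraries only.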

How the results depend on the processing

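The E14 against E12 comparison gave 2192 calls, and between 2125 and 2448 with RLE scaling, DESeq2, no filter, fewer libraries in the fit, thinning, the block or the libraries labelled hindstomach at E12 left out. Without the fold minimum it gave 4357 calls, 2140 higher and 2217 lower, which puts 49.1% of calls higher. Leaving out 1 forestomach library gave 1589 to 1733 calls, 999 to 1084 higher and 505 to 698 lower. The difference from the small intestine gave 788 to 980 calls without 1 forestomach library, 461 with only the groups compared, and 1260 or 3463 without small intestine E12 replicate 1 or 2, the last 2 chosen after seeing the data. The difference from the libraries labelled hindstomach gave 1201 to 1415 without 1 library and 1940 with only the groups compared. The replicate block gave 2239 calls for the main comparison, 1279 against the small intestine and 1702 against the libraries labelled hindstomach; with 2 pairs whose numbers do not pair, it says nothing of the size of an effect. With the block 2 endoderm factors were called higher in place of 1, and Sftpa1 was not called. Of 231 called genes followed, 149 were called in every setting that gave them a value and 0 changed sign. With only the groups compared, 214 of the 231 were called and 7 were not, and the rest had no value. A few also had no value with thinned counts or without the libraries labelled hindstomach at E12. Among genes not called, 5 near 0 changed sign. With only the groups compared the log2 fold change was 0.061 for Sox2, 0.033 for Epcam, 0.012 for Cldn18 and 0.016 for Vsig1. With only WT embryonic libraries it was 0.013 for Sox2, and with thinned counts 0.03 for Cldn18. Without 1 forestomach library it ran from -0.173 to 0.139 for Sox2, from -0.186 to 0.087 for Cldn18, from -0.231 to 0.156 for Vsig1 and from -0.011 to 0.126 for Hes1. The causes were not tested. Thinning the deeper libraries to about 18075525 counts gave 2183 calls, and genes at 1 to 3 counts carry the wide counting intervals given with them.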

Other observations

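Posterior Hox genes were looked at after their values had been seen. The 16 Hox genes of groups 9 to 13 summed to 435.0 and 464 CPM in the libraries labelled hindstomach at E12, where 13 and 14 of them had more than 3 counts. In the E14 hindstomach libraries they summed to 0.0353 and 0.0376 CPM, and in the E12 forestomach libraries to 0.881 and 0.621 CPM.

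The Y-linked genes were at 0 in more libraries than the forestomach ones. Ddx3y had 0 counts in the E14 hindstomach and E14 small intestine libraries and was at 21.7 and 45.5 CPM in the libraries labelled hindstomach at E12 and 15.8 and 21.7 CPM in the small intestine at E12. Xist, which silences an X chromosome in cells with a pair of them, was at 104 and 92.00 CPM in the E12 forestomach and 72.1 and 65.97 CPM at E14 (log2 fold change -0.51 ± 0.97 (SE), adjusted p = 0.776).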
